A study of Mus musculus with 12 samples.

Results

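Hepcidin and the genes that sense, carry, export and store iron were measured in the livers of mice lacking Mcl1 in hepatocytes, Sting1 in the whole body, both, or neither. The set held 10 genes, listed by symbol as known pathway genes with earlier results of these data in view, out of 40551 genes in the deposited tables: the hepcidin genes Hamp and Hamp2, the BMP arm genes Hjv and Bmp6, the transferrin system genes Tfrc, Tfr2 and Trf, the exporter gene Slc40a1 and the ferritin genes Fth1 and Ftl1. All 10 had enough counts to be tested.

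Total RNA sequencing was done on 12 mouse livers, 3 per genotype. WT livers were intact for both genes. Mcl1Δhep livers came from Alb-Cre mice with floxed Mcl1, so that an albumin-driven recombinase removed this anti-apoptotic BCL2 family gene from hepatocytes. In the study's staining of such livers, MCL1 remained almost only in nonparenchymal cells. Sting1−/− livers lacked the adaptor of the cGAS-STING DNA sensing pathway in every cell type, and Mcl1Δhep Sting1−/− livers carried both deletions. The labels name no treatment. They state neither age nor sex. By the study's own text the transcriptomes of WT and Mcl1Δhep livers came from 2 months old mice, and its animals were of both sexes. Nothing in the labels says how the replicates were taken, so p-values measure the spread between these livers only.

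Each library held 28826367 to 45266387 counts, and no pair of replicates agreed within sampling noise. Mcl1 fell from 98.6 CPM (counts per 1000000 counts after TMM normalization, used throughout) in WT to 28.96 CPM in Mcl1Δhep, and from 81.8 CPM in Sting1−/− to 22.3 CPM in Mcl1Δhep Sting1−/− livers. Sting1 averaged 2.36 CPM in WT and 1.86 CPM in the libraries labelled Sting1 KO, a difference that did not pass the edgeR test (adjusted p = 0.998). In Mcl1Δhep Sting1−/− livers Sting1 averaged 2.25 CPM, against 4.75 CPM in Mcl1Δhep livers, without overlap (18.2% of all genes). That difference had an edgeR unadjusted p = 0.00328 and an adjusted p = 0.134. Neither difference passed the test, so the counts do not show the Sting1 deletion and the genotype names are those of the labels. All 6 hepatocyte markers were present in every group. WT replicates 2 and 3 and Mcl1Δhep Sting1−/− replicate 1 expressed Y-linked genes at 142.5 to 147.4 CPM in sum, and the other 9 libraries at 0.201 CPM or less, so this split ran across the genotypes unevenly. Small structured RNAs took 2.37% and 1.36% of counts in Mcl1Δhep replicates 2 and 3 and at most 0.897% elsewhere, and 5 skeletal muscle markers summed to 1155 CPM in Mcl1Δhep replicate 3 and to at most 6.29 CPM elsewhere. The part of these features in the results was not tested beyond the fits named beside each result.

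Hepcidin is a small peptide hormone that hepatocytes secrete. It binds the iron exporter ferroportin, encoded by Slc40a1, and causes its loss from the surface of gut cells and macrophages, which lowers the entry of iron into plasma. Hepatocytes make hepcidin when BMP6 from sinusoidal endothelium, with the co-receptor hemojuvelin (Hjv), signals through SMAD proteins, and when interleukin 6 signals through STAT3. Inside cells, iron-regulatory proteins bind stem-loops called iron-responsive elements (IREs), which block translation when they lie in a 5′ UTR and stabilize the mRNA when they lie in a 3′ UTR. Mice carry a pair of hepcidin genes, of which Hamp encodes the iron-regulating hormone.

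The promoters of both hepcidin genes are shown because the signal routes above act on hepcidin, and because the 2 genes behaved differently in these livers. Whether either route acts on Hamp2 was not tested, nor was the part of these sequences in that difference. Both genes lie on chromosome 7 of GRCm39 on the minus strand, Hamp (ENSMUSG00000050440) at chr7:30641766-30643990 and Hamp2 (ENSMUSG00000056978) at chr7:30621797-30624106. The 250 bases before each RefSeq transcription start (promoter table of GRCm38.p6, located by exact match on GRCm39) are printed 5′ to 3′. Capitals mark the BMP response element hexamer, or the bases aligned to it, and then the STAT site.
Hamp, chr7:30643455-30643704, minus strand: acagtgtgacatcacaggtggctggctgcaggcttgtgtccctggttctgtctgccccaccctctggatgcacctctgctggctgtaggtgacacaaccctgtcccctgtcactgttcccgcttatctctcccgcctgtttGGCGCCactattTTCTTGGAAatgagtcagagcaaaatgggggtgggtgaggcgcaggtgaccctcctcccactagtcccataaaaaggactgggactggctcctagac
Hamp2, chr7:30623607-30623856, minus strand: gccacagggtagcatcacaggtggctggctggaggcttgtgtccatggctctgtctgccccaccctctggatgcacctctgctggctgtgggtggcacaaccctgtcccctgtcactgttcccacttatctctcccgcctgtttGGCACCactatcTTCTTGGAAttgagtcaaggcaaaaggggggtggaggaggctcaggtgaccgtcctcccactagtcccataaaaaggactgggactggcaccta
The 2 windows were identical at 227 of 247 aligned bases (91.9%). Hamp held GGCGCC, which begins 109 bases before the start, and Hamp2 differed from it by G4A, counted from the 5′ end of the hexamer. Both held the STAT site TTCNNNGAA as TTCTTGGAA, beginning 97 bases before the start in Hamp and 94 bases before it in Hamp2. Over all 32851 RefSeq promoter windows of this length, searched on both strands, 9.59% held GGCGCC and 7.02% held TTCNNNGAA. Among the other members with a window, the Tfrc promoter held GGCGCC as well. These matches describe letters and not binding.

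The IREs are shown because 4 of the 10 members carry this second layer of control, which acts on mRNA stability or translation. A search of 22250 coding transcripts for the IRE pattern (a bulged C, a paired stem and a CAGTGN loop) matched 20 genes in the 5′ UTR (0.0899%) and 93 in the 3′ UTR (0.418%). The last loop base could be any but G, and G-T pairs were allowed in the stem. Tfrc held 4 matches in its 3′ UTR, and Slc40a1, Fth1 and Ftl1 held 1 each in the 5′ UTR. Each is printed with the bulged C and the loop in capitals, with GRCm39 coordinates, and each lies in a single exon.
Tfrc 3′ UTR, chr16:32450037-32450066, plus strand: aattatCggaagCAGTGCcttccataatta
Tfrc 3′ UTR, chr16:32450416-32450445, plus strand: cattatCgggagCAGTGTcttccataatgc
Tfrc 3′ UTR, chr16:32450481-32450510, plus strand: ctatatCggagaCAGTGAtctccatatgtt
Tfrc 3′ UTR, chr16:32450528-32450557, plus strand: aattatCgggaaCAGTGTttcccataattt
Slc40a1 5′ UTR, chr1:45964624-45964653, minus strand: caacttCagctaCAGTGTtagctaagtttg
Fth1 5′ UTR, chr19:9960096-9960125, plus strand: ttcctgCttcaaCAGTGCttgaacggaacc
Ftl1 5′ UTR, chr7:45109202-45109231, minus strand: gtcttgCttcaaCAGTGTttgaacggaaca

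Levels between genes were compared only per length, as CPM per kb of summed exon length, in WT livers (mean ± SD, n = 3). Trf, which encodes the plasma iron carrier transferrin, was highest at 4250 ± 329 CPM per kb. Ftl1, the ferritin light chain gene, followed at 1972 ± 128 CPM per kb. Hamp at 338.5 ± 35.7 CPM per kb stood above the ferritin heavy chain gene Fth1 at 193.3 ± 10.6 CPM per kb, whereas Hamp2 averaged 214.6 ± 344 CPM per kb, a spread too wide to place it. Tfr2, the hepatocyte transferrin receptor that acts as an iron sensor, reached 95.8 ± 13.03 CPM per kb, and Slc40a1 21.2 ± 4.42 CPM per kb. Hjv at 6.80 ± 2.05 CPM per kb and Tfrc, the transferrin receptor that imports iron, at 3.95 ± 1.58 CPM per kb differed by less than the sum of their SDs. Bmp6, whose main source in the liver is the sinusoidal endothelium, was lowest at 1.64 ± 0.354 CPM per kb. Apart from Hamp2 and the neighbors Hjv and Tfrc, adjacent genes in this order differed by more than the sum of their SDs. The summed length takes in the exons of all annotated transcripts, 3520 bases for Fth1 and 890 for Hamp, and the order depends on it. Before the division by length, Fth1 averaged 680.5 CPM and Hamp 301.3 CPM in WT livers.

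**Figure D1:**
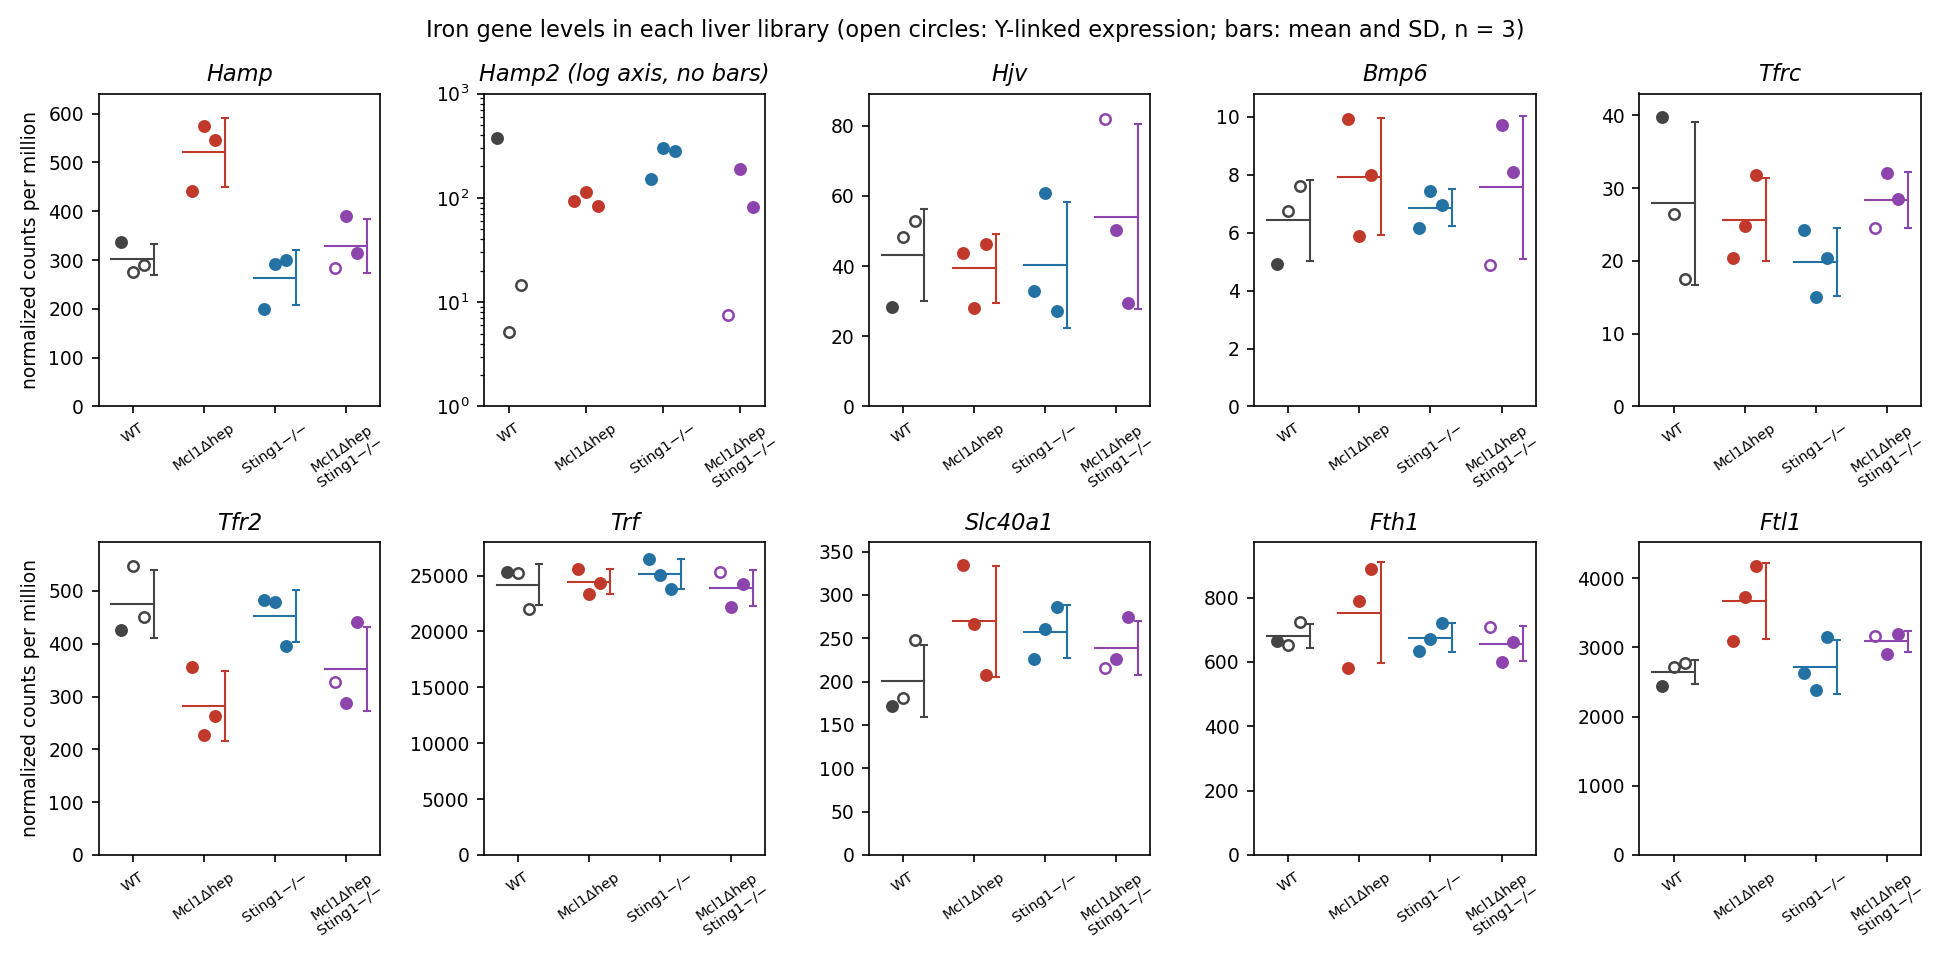
CPM (y axis) of the 10 iron genes in each liver, by genotype (x axis); each point is a library, open circles mark the 3 libraries with Y-linked expression, and bars give the mean and SD (n = 3), except for Hamp2, which is on a log axis without bars. The 3 Mcl1Δhep livers lie above all WT livers for Hamp and Ftl1 and below them for Tfr2.

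Hamp rose and Tfr2 fell in Mcl1Δhep livers against WT, and no other member passed the test in that comparison. That is 2 of 10 members, beside 20.2% of all 15070 tested genes called in the same comparison (10.8% higher and 9.43% lower), so the members' share was close to the background. The median log2 fold change was 0.08 over the members and -0.00 over all genes tested. The 2 groups of livers did not overlap for 3 members, Hamp, Ftl1 and Tfr2, against 33.3% of all genes.

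Hamp was at 337, 276.1 and 291 CPM in the 3 WT livers and at 441, 574 and 547 CPM in the 3 Mcl1Δhep livers. It was at 199.0, 292 and 300.4 CPM in Sting1−/− livers, and at 284, 391 and 314 CPM in Mcl1Δhep Sting1−/− livers. Every Mcl1Δhep liver thus stood above every liver of the other genotypes, and those 3 genotypes overlapped. Against WT, the increase was 0.79 on the log2 scale (SE 0.20, 95% interval 0.36 to 1.21, edgeR adjusted p = 0.0178), or 1.73-fold. In these bulk livers, more hepcidin RNA per hepatocyte cannot be told apart from a changed share of hepatocytes. The summed hepatocyte markers ranged from 81108 to 134524 CPM in WT and from 93855 to 124635 CPM in Mcl1Δhep livers. Of these 6 markers, 1 was called lower and 0 higher (median log2 fold change -0.17), beside 9.43% of all genes lower. The call was lost with Y-linked expression as a covariate (0.61, edgeR adjusted p = 0.109), with the small RNA share as a covariate (0.56, adjusted p = 0.228), and without WT replicate 2 (0.72, adjusted p = 0.0737), WT replicate 3 (0.76, adjusted p = 0.0615) or Mcl1Δhep replicate 2 (0.71, adjusted p = 0.0656).

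In the Sting1−/− background, Hamp differed by 0.32 on the log2 scale between Mcl1Δhep Sting1−/− and Sting1−/− livers (SE 0.19, interval -0.10 to 0.74, edgeR adjusted p = 0.608), with overlapping livers. The difference between these 2 effects was tested as an interaction, at -0.47 (SE 0.27, interval -1.07 to 0.13, edgeR adjusted p = 0.442), so the data do not show that the effects differ. Between Mcl1Δhep Sting1−/− and Mcl1Δhep livers Hamp was lower by 0.66 on the log2 scale (interval -1.08 to -0.23), without overlap (18.2% of all genes), with an unadjusted p = 0.00550 and an adjusted p = 0.141 in edgeR. DESeq2 gave -0.67 (adjusted p = 0.0297) and called 4.74% of genes in that comparison, where edgeR called 0%. Without Mcl1Δhep replicate 1 the edgeR value was -0.76 (adjusted p = 0.0235). Averaged over both Sting1 backgrounds, Hamp was higher with Mcl1 deletion by 0.55 on the log2 scale (SE 0.14, edgeR adjusted p = 0.0183), and this call held in all 12 fits that left out 1 library but not with the small RNA covariate (0.46, adjusted p = 0.0647) or in the libraries without Y-linked expression alone (0.52, adjusted p = 0.202). In that averaged comparison 2 of 10 members, again Hamp and Tfr2, were called, beside 16.7% of all genes (9.9% higher and 6.83% lower). These comparisons share control livers and are not independent of each other.

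Hamp2, the paralog next to Hamp, split with Y-linked expression. It was at 5.16 CPM in WT replicate 2, 14.7 CPM in WT replicate 3 and 7.52 CPM in Mcl1Δhep Sting1−/− replicate 1, the 3 libraries that expressed Y-linked genes. In the other 9 libraries it ranged from 81.7 to 373 CPM with a median of 150.6 CPM, and the 2 sets did not overlap. With genotype in the edgeR model, the Y-linked term of Hamp2 was -4.70 on the log2 scale (SE 0.49, interval -5.78 to -3.62, adjusted p = 0.000591), or 26.0-fold lower, in a comparison that called 1.01% of all genes. The term was read after the split had been seen, and no other member passed the test for it. Hjv (0.93, adjusted p = 0.323) and Tfrc (-0.58, adjusted p = 0.472) had unadjusted p = 0.0131 and 0.0330 in edgeR, and the adjusted p of the other 7 was above 0.8.

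**Figure D2:**
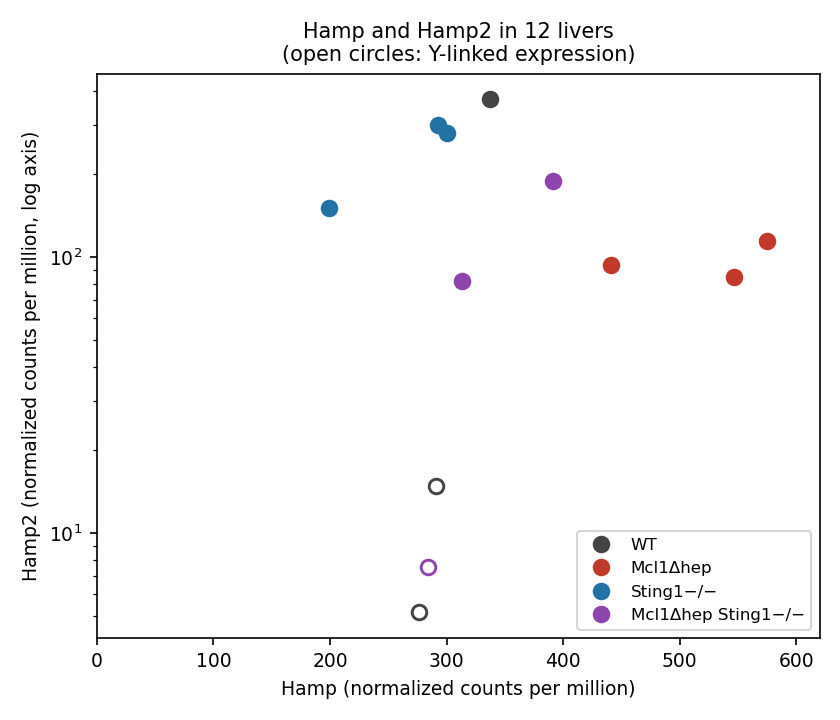
Hamp2 against Hamp in each of the 12 livers, in CPM, with Hamp2 on a log axis; colors mark genotype and open circles mark libraries with Y-linked expression. The open circles lie at 5.16 to 14.7 CPM of Hamp2, below all 9 filled circles, while their Hamp levels of 276.1 to 291 CPM lie inside the range of the others.

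Within the libraries without Y-linked expression, Hamp2 was at 373 CPM in the single WT liver left, 93.6, 113.9 and 84.3 CPM in Mcl1Δhep livers, 150.6, 301 and 281 CPM in Sting1−/− livers, and 188 and 81.7 CPM in Mcl1Δhep Sting1−/− livers. The Mcl1Δhep livers thus lay below the WT liver and all 3 Sting1−/− livers. With no covariate the differences were -0.43 for Mcl1Δhep against WT (SE 1.23, edgeR adjusted p = 0.829) and -1.40 for Mcl1Δhep Sting1−/− against Sting1−/− (SE 1.25, adjusted p = 0.775). With the Y-linked covariate the effect of Mcl1 deletion averaged over both backgrounds was -1.14 (edgeR adjusted p = 0.0255), and in the libraries without Y-linked expression alone it was -1.40 (adjusted p = 0.0553). Without WT replicate 1, the only WT library lacking Y-linked expression, the Mcl1Δhep against WT value turned to 3.28 (adjusted p = 0.0452).

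As a share of all reads on the hepcidin pair, Hamp2 took 52.5% in WT replicate 1 (95% Wilson interval 51.9 to 53.1), 1.83% in replicate 2 (1.58 to 2.13) and 4.82% in replicate 3 (4.40 to 5.28). Sting1−/− livers gave 43.1% (42.2 to 44.0), 50.7% (50.1 to 51.4) and 48.3% (47.7 to 48.9). The Sting1−/− livers were therefore near an even split between the paralogs. Mcl1Δhep livers gave 17.5% (17.1 to 18.0), 16.5% (16.1 to 17.0) and 13.4% (12.9 to 13.8), and Mcl1Δhep Sting1−/− livers 2.58% (2.27 to 2.93), 32.5% (31.9 to 33.1) and 20.7% (20.01 to 21.3). These intervals cover counting error only. Between Mcl1-deleted and Mcl1-intact livers the share differed by -16.4 percentage points (exact two-sided permutation within Sting1 background, 400 arrangements, p = 0.135, adjusted over 3 ratios 0.203), and in the 9 libraries without Y-linked expression by -28.8 points, a value given with no test because a single WT liver is left there. The 2 genes are paralogs, and the counting could have split reads that match both. Gm44662 overlaps both, and without a stated strand its reads cannot be told apart from theirs.

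Over the 12 livers and 12559 genes with a mean of at least 1 CPM, the genes whose log2 CPM tracked Hamp most closely were Ncoa7 (r = 0.945), Mthfd2l (r = 0.936) and Vat1 (r = 0.931). For Hamp2 they included Sult2a1 (r = 0.974), a sulfotransferase gene, and Acss3 (r = 0.964). For Tfrc they were Efemp1 (r = 0.863), Tdp1 (r = 0.843) and Med19 (r = 0.776). Between Hamp and Hamp2 themselves r was 0.19, and between Hamp and Tfr2 -0.83. These are descriptions over livers that share genotypes, with no test. Hamp2 also split with Y-linked expression, and the part of that split in its r values was not tested.

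Tfr2 fell where Hamp rose. It was at 426, 548 and 450.3 CPM in WT livers and at 356, 228 and 262 CPM in Mcl1Δhep livers, which did not overlap. Sting1−/− livers held 483, 478 and 396 CPM, and Mcl1Δhep Sting1−/− livers 328, 288 and 441 CPM. The fall in Mcl1Δhep against WT was -0.75 on the log2 scale (SE 0.21, interval -1.21 to -0.29, edgeR adjusted p = 0.0281), or 1.68-fold lower, and the difference without Sting1 was -0.36 (SE 0.21, adjusted p = 0.585). Averaged over both backgrounds Tfr2 fell by 0.56 (edgeR adjusted p = 0.0246), and the interaction was 0.39 (adjusted p = 0.549). The averaged call was lost without any 1 of WT replicate 2, Mcl1Δhep replicate 2, Sting1−/− replicates 1 and 2 and Mcl1Δhep Sting1−/− replicates 1 and 2, at -0.54 to -0.49 with edgeR adjusted p between 0.0589 and 0.0629. The Mcl1Δhep against WT call was lost with only those 2 genotypes in the fit (-0.73, adjusted p = 0.0924), with the Y-linked covariate (-0.73, adjusted p = 0.0992) or the small RNA covariate (-0.41, adjusted p = 0.353), and without WT replicate 2 or 3 or Mcl1Δhep replicate 2 or 3, with adjusted p between 0.0611 and 0.112.

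The upstream genes of the BMP arm did not pass the test in any genotype comparison. Hjv was at 28.4, 48.3 and 52.8 CPM in WT, 43.8, 28.1 and 46.2 CPM in Mcl1Δhep, 32.9, 60.9 and 27.3 CPM in Sting1−/−, and 82.0, 50.4 and 29.6 CPM in Mcl1Δhep Sting1−/− livers. Livers of every genotype overlapped for Hjv. Bmp6 was rare at 4.88 to 9.93 CPM (146 to 480 counts), with means of 6.42 CPM in WT, 7.94 CPM in Mcl1Δhep, 6.86 CPM in Sting1−/− and 7.57 CPM in Mcl1Δhep Sting1−/− livers, and a difference of 0.31 between Mcl1Δhep and WT (SE 0.26, interval -0.27 to 0.88, edgeR adjusted p = 0.422). Txndc5 and 4930579J19Rik overlap Bmp6. The 6 sinusoidal endothelium markers summed to 224 to 385 CPM over all livers, and none of them was called, beside 20.2% of all genes in Mcl1Δhep against WT livers.

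The other transferrin genes were flat or scattered. Trf stayed between 22035 and 26449 CPM in all 12 livers, and its largest difference in any of the 4 pairwise comparisons was -0.07 on the log2 scale. Tfrc was at 39.7, 26.4 and 17.5 CPM in WT, 20.4, 24.8 and 31.7 CPM in Mcl1Δhep, 24.2, 15.0 and 20.4 CPM in Sting1−/−, and 24.5, 32.1 and 28.5 CPM in Mcl1Δhep Sting1−/− livers. The last pair of groups touched without overlapping, 24.2 CPM against 24.5 CPM, and differed by 0.51 (SE 0.28, edgeR adjusted p = 0.543). Tfrc was the single member without overlap in that comparison, against 22.3% of all genes. Gm69171 overlaps Trf and Gm60415 overlaps Tfrc.

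Slc40a1, the iron exporter of hepatocytes, Kupffer cells and other macrophages, was at 172, 181 and 248 CPM in WT and 335, 266 and 207 CPM in Mcl1Δhep livers. Sting1−/− livers held 226, 261 and 287 CPM, and Mcl1Δhep Sting1−/− livers 216, 226 and 274 CPM. The 4 groups overlapped, and the largest pairwise difference, 0.43 between Mcl1Δhep and WT, had SE 0.21 and an edgeR adjusted p = 0.152. Summed Kupffer cell markers stood beside this at 286 to 466 CPM in WT and 516 to 583 CPM in Mcl1Δhep livers, with 5 of 5 markers present and 2 of 5 called higher. The 6 recruited macrophage markers summed to 7.09 to 9.79 CPM and 39.7 to 84.0 CPM, with 5 of 6 called higher. Of all genes, 10.8% were called higher in that comparison. The part of these cell types in Slc40a1 was not tested.

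**Figure D3:**
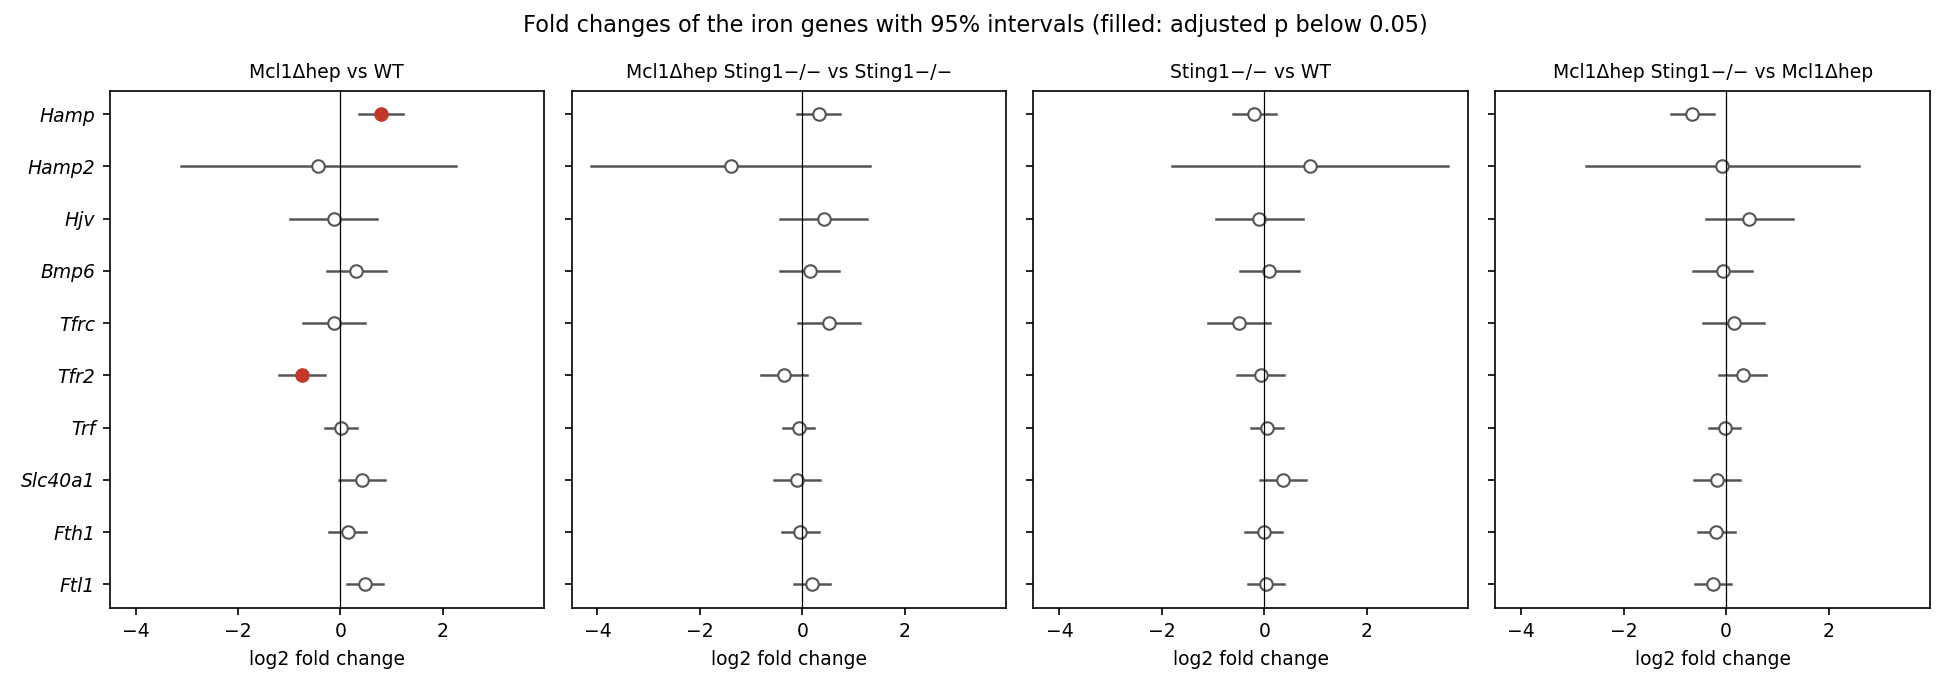
Log2 fold change with 95% interval of each iron gene (y axis) in the 4 pairwise genotype comparisons, 1 per panel; filled points passed the edgeR test at adjusted p below 0.05. Hamp (0.79) and Tfr2 (-0.75) pass it in the panel of Mcl1Δhep against WT, and the intervals of Hamp2 are the widest of the 10 genes in each panel.

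The ferritin chains, whose proteins assemble into the shell that stores iron, moved apart with Mcl1 deletion. Ftl1 was at 2449, 2714 and 2770.3 CPM in WT, 3098, 3735 and 4179.7 CPM in Mcl1Δhep, 2632, 2384 and 3148 CPM in Sting1−/−, and 3165, 2911 and 3192 CPM in Mcl1Δhep Sting1−/− livers. All Mcl1Δhep livers lay above all WT livers, by 0.47 on the log2 scale (SE 0.16, interval 0.12 to 0.83), but the edgeR adjusted p of 0.0573 missed the threshold, while DESeq2 called it (0.49, adjusted p = 0.0132, with 25.9% of all genes called). Without Mcl1Δhep replicate 1 edgeR called it as well (0.58, adjusted p = 0.0174). Averaged over both backgrounds it was 0.33 higher (edgeR adjusted p = 0.0695, DESeq2 adjusted p = 0.0166). Fth1 was at 665, 654 and 723 CPM in WT, 580.5, 790.0 and 888 CPM in Mcl1Δhep, 633, 671 and 722 CPM in Sting1−/−, and 708, 600.5 and 662 CPM in Mcl1Δhep Sting1−/− livers. Fth1 overlapped between all groups and differed by 0.15 between Mcl1Δhep and WT (SE 0.17, adjusted p = 0.551).

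Within each library, the ratio of the ferritin counts separated livers by Mcl1 status. The log2 ratio of Fth1 to Ftl1 counts was -1.88, -2.05 and -1.94 in WT and -2.06, -1.83 and -2.12 in Sting1−/− livers. It was -2.42, -2.24 and -2.23 in Mcl1Δhep and -2.16, -2.28 and -2.27 in Mcl1Δhep Sting1−/− livers. All 6 Mcl1-deleted livers lay below all 6 intact ones, and in plain counts Ftl1 exceeded Fth1 by 4.47 to 5.34 times with the deletion and by 3.56 to 4.36 times without it. The mean difference was -0.29 (exact two-sided permutation within Sting1 background, p = 0.005, the smallest that 400 arrangements allow, adjusted over 3 ratios 0.015). In the libraries without Y-linked expression it was -0.34, given with no test because a single WT liver is left there. A ratio within a library shows that the 2 genes changed unequally and not that either stayed the same. How often ratios of other gene pairs separate livers by Mcl1 status was not counted. Gm36913 overlaps Fth1, and Gm10252 and Gm56125 overlap Ftl1.

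**Figure D4:**
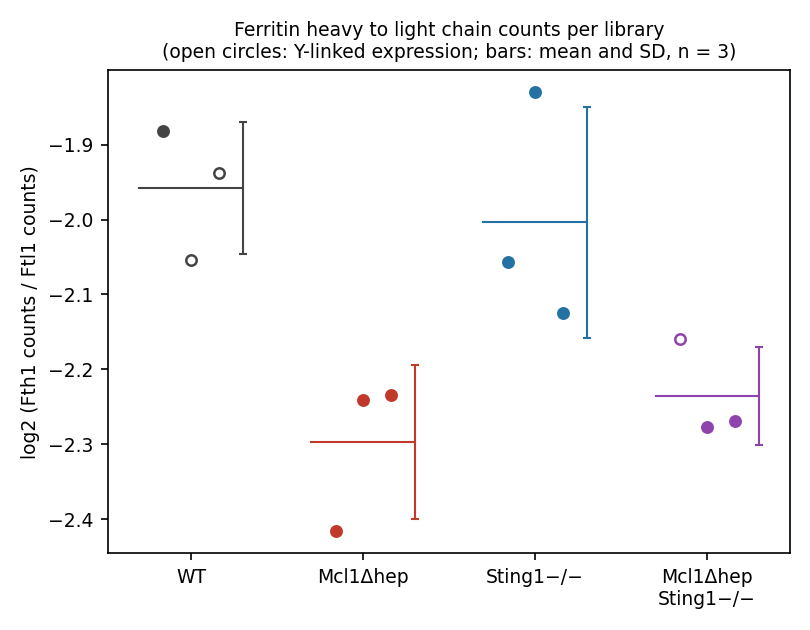
Log2 ratio of Fth1 to Ftl1 counts (y axis) in each liver by genotype (x axis), with open circles for libraries with Y-linked expression and bars for the mean and SD (n = 3). The 6 Mcl1-deleted livers lie at -2.16 or lower and the 6 intact livers at -2.12 or higher.

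The ratio of Tfrc to summed ferritin counts, which joins the importer to the store, ranged from -7.67 to -6.29 on the log2 scale over the 12 livers. WT livers alone covered -7.64 to -6.29, which is most of that range. Mcl1-deleted and intact livers differed by -0.04 (exact two-sided permutation within Sting1 background, p = 0.87, adjusted over 3 ratios 0.87).

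Between Sting1−/− and WT livers, 0 of 10 members were called, as were 0% of all genes, and 0 members had an unadjusted p below 0.05 in edgeR. DESeq2 called 0 members there, too. The largest difference with an SE below 0.5 was that of Tfrc, at -0.49 (SE 0.28, edgeR adjusted p = 0.998). In Mcl1Δhep Sting1−/− against Sting1−/− livers edgeR called 0 of 10 members beside 0.803% of all genes, 0 members had an unadjusted p below 0.05, and DESeq2 called 0. Against Mcl1Δhep livers edgeR called 0 beside 0% of all genes, with 1 member, Hamp, at an unadjusted p below 0.05, which DESeq2 called. For the interaction edgeR called 0 members beside 0% of all genes, with 0 at an unadjusted p below 0.05, and DESeq2 called 0.

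The rest of the iron and heme system was followed in 83 further genes in 6 lists, of which 79 could be tested (Erfe, Il6, Cybrd1 and Ftmt could not). In Mcl1Δhep against WT livers 19 of the 79 were called, 6 higher and 13 lower, beside 20.2% of all genes (10.8% higher and 9.43% lower). Averaged over both Sting1 backgrounds 20 were called, 7 higher and 13 lower, beside 16.7% of all genes (9.9% higher and 6.83% lower). These shares were not tested against that of all genes. In each of the other 4 comparisons edgeR called 0 of the 79, where DESeq2 called 1 for Mcl1Δhep Sting1−/− against Sting1−/−, 0 for Sting1−/− against WT, 2 for Mcl1Δhep Sting1−/− against Mcl1Δhep, and 3 for the interaction. The count in Mcl1Δhep against WT livers was 0 in the libraries without Y-linked expression, 4 with the small RNA covariate, 12 with the Y-linked covariate and 7 with 2 genotypes only. It reached 29 without Mcl1Δhep replicate 1, was 8 without WT replicate 2 or Mcl1Δhep replicate 2 and 10 without WT replicate 3, and was 15 to 20 without any other single library. The averaged count was 1 in the libraries without Y-linked expression and 11 with the small RNA covariate. It was 10 without WT replicate 3 or Sting1−/− replicate 1, 12 to 13 without WT replicate 2, Mcl1Δhep replicate 2, Sting1−/− replicate 2 or 3 or Mcl1Δhep Sting1−/− replicate 1 or 2, and 29 without Mcl1Δhep replicate 1. Over 20 alternative fits the calls of Hmox1, Cd163 and Slc25a37 held in 19, those of Id1 and Cebpa in 18, those of Furin and Gdf15 in 17, those of Aco1, Ireb2 and Slc25a28 in 14, and those of the other 9 genes in 6 to 13.

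**Figure D5:**
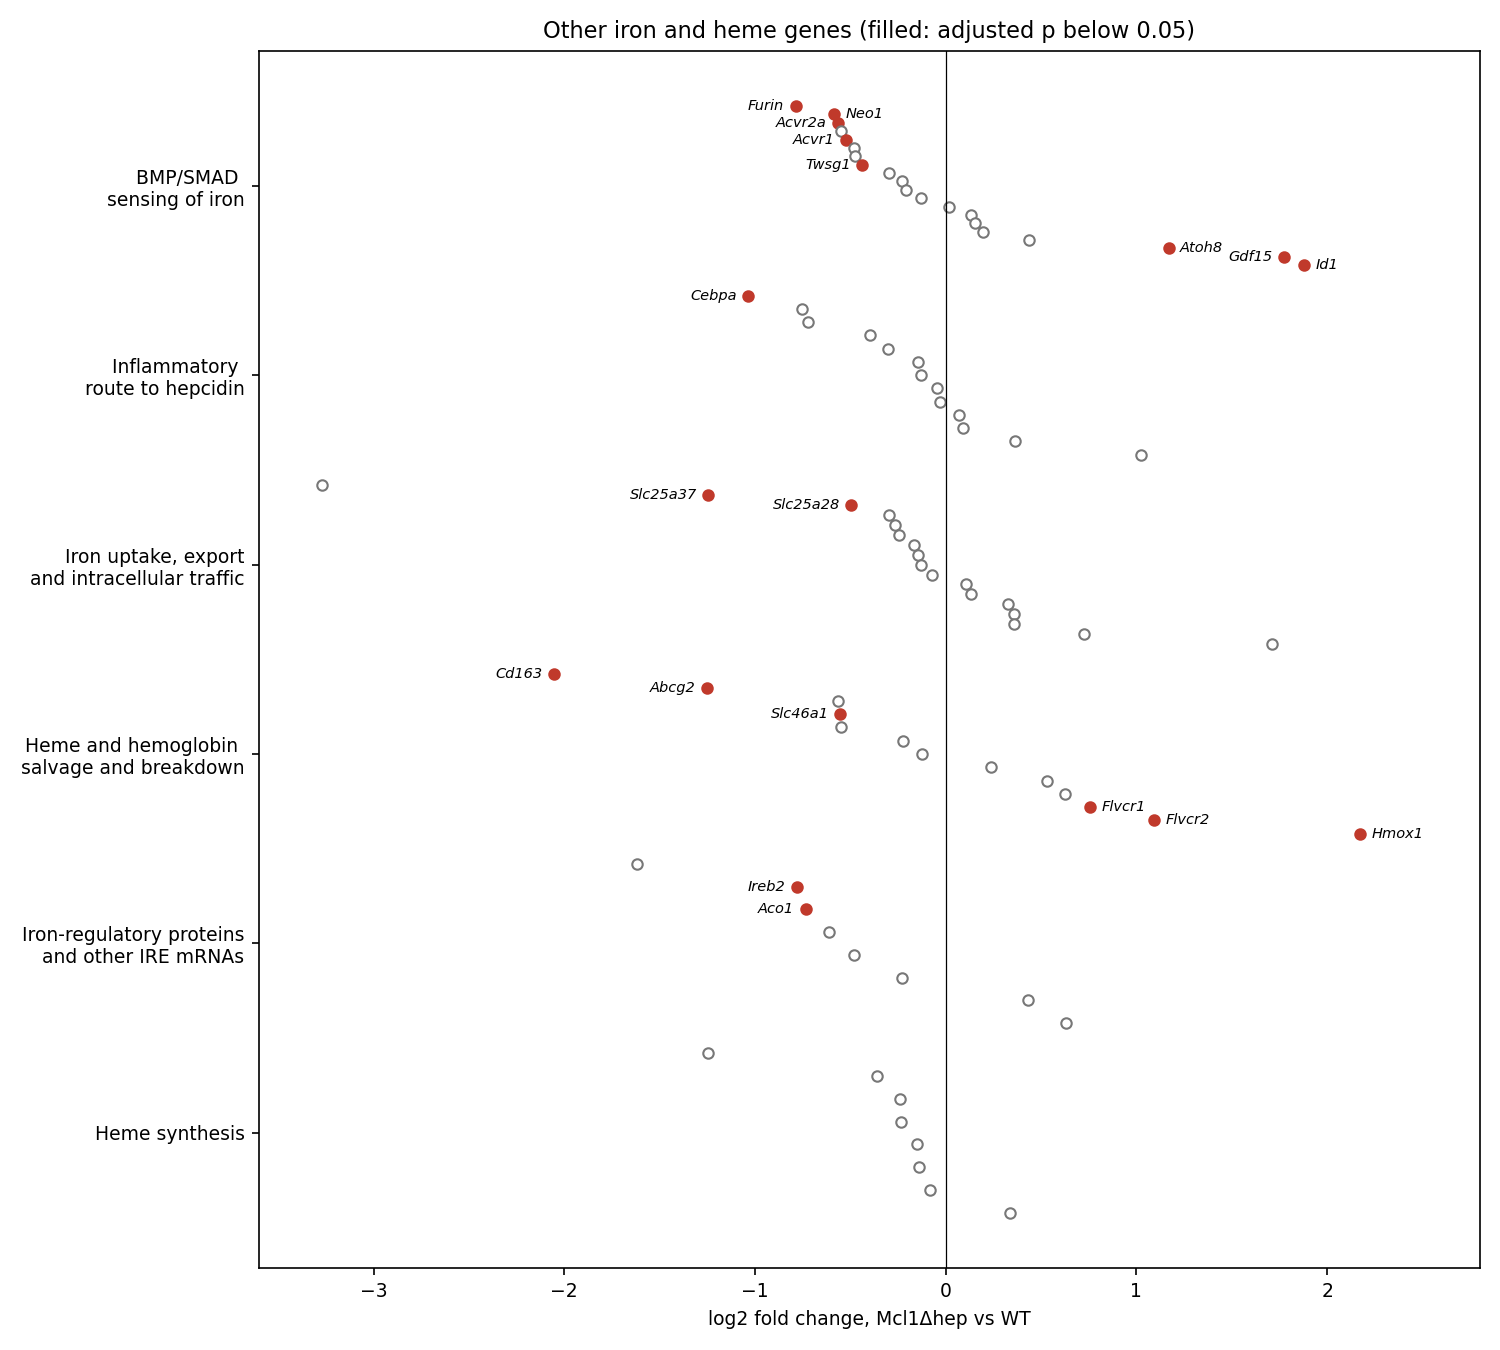
Log2 fold change between Mcl1Δhep and WT livers (x axis) of the 79 tested iron and heme genes in 6 lists (y axis); each point is a gene, and filled points with names passed the edgeR test at adjusted p below 0.05. Hmox1 (2.17) and Id1 (1.88) are the filled points farthest to the right, and Cd163 (-2.05) the one farthest to the left.

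In the BMP and SMAD list of 20 tested genes, 3 rose and 5 fell in Mcl1Δhep against WT, with a median of -0.22, beside 10.8% of all genes higher and 9.43% lower with a median of -0.00. Id1, a direct target of this pathway, was at 9.47, 3.11 and 4.82 CPM in WT and at 21.0, 16.7 and 27.0 CPM in Mcl1Δhep livers, and rose by 1.88 on the log2 scale (edgeR adjusted p = 0.00878). The rise of Id1 was 1.35 with the Y-linked covariate (edgeR adjusted p = 0.0307). It was 1.17 in the libraries without Y-linked expression, where a single WT liver is left. Atoh8, a transcription factor gene of the same response, rose by 1.17 (edgeR adjusted p = 0.0441), but the lowest Mcl1Δhep liver (15.5 CPM) lay below the highest WT liver (15.6 CPM). That call held in 6 of 20 alternative fits, was lost in 10 of the 12 that left out 1 library (0.78 to 1.66, edgeR adjusted p up to 0.150), and was lost with the Y-linked covariate (0.75, adjusted p = 0.194). Gdf15, a stress-induced cytokine gene, rose by 1.78 (edgeR adjusted p = 0.0122). Those that fell were Furin (-0.79, adjusted p = 0.00617), a protease that processes hemojuvelin and pro-hepcidin, the hemojuvelin partner Neo1 (-0.58), the receptors Acvr2a (-0.56) and Acvr1 (-0.52), and the BMP antagonist Twsg1 (-0.44). The calls of Neo1, Acvr2a, Acvr1 and Twsg1 held in 11, 13, 7 and 10 of 20 alternative fits. Acvr1 averaged 11.7 CPM in WT, 8.14 CPM in Mcl1Δhep and 8.51 CPM in Sting1−/− livers, and was not called in Sting1−/− against WT (edgeR adjusted p = 0.810). Smad7, the inhibitory SMAD, was at 0.44 (adjusted p = 0.294). In the averaged comparison Tmprss6, the protease that cleaves hemojuvelin, was also called, at -0.37 (edgeR adjusted p = 0.0470), a call that held in 3 of 19 alternative fits and in 2 of the 12 that left out 1 library (-0.42 to -0.29, edgeR adjusted p up to 0.107).

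In the list of the inflammatory route, 1 of 13 tested genes was called in Mcl1Δhep against WT livers, a smaller share than the 20.2% of all genes. It was Cebpa, which encodes a transcription factor of the hepcidin promoter, and it fell from 437, 469 and 456 CPM in WT to 219.95, 154 and 289.9 CPM in Mcl1Δhep livers (-1.04, edgeR adjusted p = 0.00563). The interleukin 6 receptor gene Il6ra was called in the averaged comparison (-0.61, edgeR adjusted p = 0.0360), which held in 9 of 19 alternative fits and in 5 of the 12 that left out 1 library (edgeR adjusted p up to 0.0908). Il6 itself was too low to test.

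Among 17 genes of iron uptake, export and traffic, the mitochondrial iron importer genes Slc25a37 (mitoferrin 1) and Slc25a28 (mitoferrin 2) fell in Mcl1Δhep against WT livers and none rose, a smaller share than the 20.2% of all genes called. Slc25a37 was at 14.8, 25.3 and 21.8 CPM in WT and at 8.15, 8.14 and 9.71 CPM in Mcl1Δhep livers (-1.25, edgeR adjusted p = 0.00197), and Slc25a28 changed by -0.49 (adjusted p = 0.0150). The iron-binding protein gene Ltf was called higher in the averaged comparison (1.43, adjusted p = 0.0418) at a mean of 0.158 CPM in WT and 0.630 CPM in Mcl1Δhep livers. That call held in 5 of 19 alternative fits and in 3 of the 12 that left out 1 library (edgeR adjusted p up to 0.0913).

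Of 13 genes of heme and hemoglobin salvage, 3 rose and 3 fell in Mcl1Δhep against WT livers, beside 10.8% of all genes higher and 9.43% lower. Hmox1, the heme oxygenase gene, whose product frees iron from heme, was at 20.8, 13.9 and 24.8 CPM in WT and at 103.2, 91.7 and 73.9 CPM in Mcl1Δhep livers, and rose by 2.17 (edgeR adjusted p = 0.000966). The heme transporter genes Flvcr2 (1.09) and Flvcr1 (0.76) rose as well, in calls that held in 13 and 12 of 20 alternative fits. Both calls were lost with the Y-linked covariate (edgeR adjusted p = 0.0581 and 0.130). Flvcr2 was also at 5.16 to 8.04 CPM in Sting1−/− livers, above the 3.04 to 3.93 CPM of WT livers, but was not called in that comparison. Cd163, the macrophage receptor for hemoglobin bound to haptoglobin, fell from 9.74, 12.8 and 16.8 CPM to 2.59, 3.40 and 3.38 CPM (-2.05, adjusted p = 0.00146), while 2 of the 5 Kupffer cell markers were called higher, beside 10.8% of all genes. Slc46a1 (-0.55), a heme and folate transporter gene, fell, and so did Abcg2 (-1.25), an efflux pump gene that changed by -0.53 (adjusted p = 0.415) with the Y-linked covariate. Erythroid markers, of which 8 of 9 had counts, summed to 207 to 585 CPM in WT and 163 to 663 CPM in Mcl1Δhep livers. Of the 7 tested, 1 was called lower and 0 higher, beside 9.43% of all genes lower. The part of erythroid cells in the heme genes and in Slc25a37 was not tested.

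The means of Hmox1 and Cd163 in Mcl1Δhep Sting1−/− livers lay between those of WT and Mcl1Δhep livers. Hmox1 averaged 46.2 CPM there and 27.5 CPM in Sting1−/− livers (0.74, edgeR adjusted p = 0.1597), and its interaction was -1.43 (unadjusted p = 0.000501, adjusted p = 0.216). Cd163 averaged 11.5 CPM and 15.98 CPM (-0.47, adjusted p = 0.552), with an interaction of 1.58 (unadjusted p = 0.00120, adjusted p = 0.233). Neither interaction passed the threshold, so a difference between backgrounds was not shown.

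Both genes that encode iron-regulatory proteins, the factors that bind the IREs printed above, fell in Mcl1Δhep against WT livers. Their list had 2 of 8 tested genes called there, both lower, beside 20.2% of all genes (9.43% lower). The averaged comparison called 3 of 8, all lower, beside 16.7% of all genes (6.83% lower). Aco1 (IRP1) went from 364, 362 and 368 CPM in WT to 266, 159 and 232 CPM in Mcl1Δhep livers (-0.73, edgeR adjusted p = 0.0194), and Ireb2 (IRP2) from 35.1, 31.7 and 47.6 CPM to 22.7, 19.0 and 24.9 CPM (-0.78, adjusted p = 0.0268). The other 6 tested genes of that list were not called in this comparison, and Epas1 was called in the averaged one (-0.53, edgeR adjusted p = 0.0387), where its call held in 7 of 19 alternative fits and in 2 of the 12 that left out 1 library (adjusted p up to 0.0952). The averaged call of Aco1 held in 8 of the 19 and in 4 of the 12, and that of Ireb2 in 11 and 7. Mcl1Δhep Sting1−/− livers averaged 317 CPM of Aco1 and 32.3 CPM of Ireb2, against 360 and 39.2 CPM in Sting1−/− livers. Among 8 heme synthesis genes none was called in Mcl1Δhep against WT livers, beside 20.2% of all genes. The averaged comparison called 1 of these 8, beside 16.7% of all genes. It was Alas1, the rate-limiting enzyme gene of the hepatocyte pathway, which fell (-1.21, edgeR adjusted p = 0.0274). Levels of Alas1 were 794 to 1327 CPM in WT and 394 to 590.4 CPM in Mcl1Δhep livers. Sting1−/− livers held 500.3 to 1149 CPM of Alas1 and Mcl1Δhep Sting1−/− livers 182 to 712 CPM, which overlapped. The averaged call of Alas1 held in 9 of 19 alternative fits and in 4 of the 12 that left out 1 library (edgeR adjusted p up to 0.0696). Alas2, the erythroid enzyme gene, carried a Y-linked term of 2.43 (adjusted p = 0.00171).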

How the data were processed

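Libraries were prepared from total RNA of 12 livers and sequenced on an Illumina instrument. The deposited values are raw read counts per Ensembl gene, which the authors made, per the labels and the submitters' processing notes, with STAR and featureCounts on GRCm39; versions, annotation release and strand setting are not given in the sources used here. Of 40551 gene identifiers, 39533 matched GENCODE vM39.

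Counts were tested with edgeR 4.0.16 (R 4.3.3): TMM, filterByExpr, quasi-likelihood F test, 1 model over all 12 libraries, Benjamini-Hochberg adjustment over 15070 genes, threshold 0.05, prior count 2. DESeq2 1.42.0 was an alternative. Count ratios within a library were compared by exact permutation within Sting1 background. The tests recovered changed genes in simulated counts, where the changes were larger than those of Hamp and Tfr2. Recovery of changes as small as theirs was not checked. Named genes were the 10 members, every listed gene that was called, and the 3 genes most like Hamp, Hamp2 and Tfrc by r, of which 1 is not reported here; Smad7 and Alas2 were added after their values were seen. The members and lists were chosen with earlier results of these data known. The Y-linked fits on part of the libraries and the reading of the Y-linked term were added after the data were seen. Alternatives were other size factors, no filter, 2 genotypes only, a replicate block, a Y-linked covariate (summed CPM above 1), a small RNA covariate and leaving out each library. Totals of 28826367 to 45266387 counts limit precision for genes at a few CPM.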

Additional observations from a re-analysis of the deposited data

Results flagged for a closer look

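Twsg1, a BMP antagonist gene of the BMP and SMAD list, lay on opposite sides of the intact livers with Mcl1 deletion in the 2 Sting1 backgrounds. All Mcl1Δhep livers (33.1 to 41.1 CPM) lay below all WT livers (43.9 to 56.1 CPM), whereas all Mcl1Δhep Sting1−/− livers (47.1 to 50.3 CPM) lay above all Sting1−/− livers (43.1 to 43.4 CPM). Groups without overlap made up 33.3% and 22.3% of all genes in these comparisons. The log2 fold change was -0.44 against WT (edgeR adjusted p = 0.0340) and 0.17 against Sting1−/− livers (SE 0.13, adjusted p = 0.723), of which the second did not pass the test. The interaction was 0.60 on the log2 scale (SE 0.18, edgeR unadjusted p = 0.00620, adjusted p = 0.273), so the difference did not pass the test.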

How the results depend on the processing

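Of 1180 values of the 10 genes under the alternatives, 1148 stayed on their side of the threshold without reversing a call, 24 lost a call, 7 gained one and 1 reversed with a call, and 66 of the 1148 changed sign with no call on either side. In Mcl1Δhep against WT livers, where 2 of the 10 genes were called, the count was 1 with 2 genotypes only, 0 with the Y-linked covariate, 0 with the small RNA covariate and 0 in the libraries without Y-linked expression. It ranged from 0 to 3 when 1 library was left out: 0 without WT replicate 2 or 3 or Mcl1Δhep replicate 2, 1 without Mcl1Δhep replicate 3, and 3 without WT replicate 1 or Mcl1Δhep replicate 1. For the averaged effect it was 0 with the small RNA covariate and 0 without the Y-linked libraries, and 1 to 3 when 1 library was left out. For Mcl1Δhep Sting1−/− against Mcl1Δhep livers it was 1 in DESeq2 and 0 to 1 when 1 library was left out, with 1 only without Mcl1Δhep replicate 1. For Mcl1Δhep Sting1−/− against Sting1−/−, Sting1−/− against WT and the interaction it stayed at 0 in every fit that left out 1 library. Hamp2 in Mcl1Δhep against WT ranged from -0.999 to 3.28 when 1 library was left out. The cause of these changes was not tested.

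The Hamp2 share differed by -28.8 points in the libraries without Y-linked expression and by -20.8 to -8.16 points when 1 library was left out. The Fth1 to Ftl1 ratio kept its direction and call without any 1 library (-0.32 to -0.24). The Tfrc to ferritin ratio ranged from -0.21 to 0.13, turning to 0.13 without WT replicate 1, 0.05 without Sting1−/− replicate 1 and 0.02 without Mcl1Δhep Sting1−/− replicate 1. Same-numbered livers correlated at -0.092 to 0.251 and were not treated as pairs. With the replicate block 2, 0, 0, 0, 2 and 0 of the 10 genes were called in the order Mcl1Δhep against WT, Mcl1Δhep Sting1−/− against Sting1−/−, Sting1−/− against WT, Mcl1Δhep Sting1−/− against Mcl1Δhep, averaged and interaction, and 2591, 129, 0, 0, 2254 and 0 of all genes, against 3050, 121, 0, 0, 2522 and 0 without it; the Fth1 to Ftl1 ratio with the block was -0.29, with an exact permutation adjusted p = 0.0938, since 64 sign flips allow no smaller one.

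Genes called in Mcl1Δhep against WT livers numbered 1178 with 2 genotypes only, 1531 with the Y-linked covariate, 490 with the small RNA covariate, 4 without the Y-linked libraries and 1233 to 5232 when 1 library was left out. For Mcl1Δhep Sting1−/− against Sting1−/− they numbered 474 in DESeq2, 17 with 2 genotypes, 45 with the Y-linked covariate, 0 without the Y-linked libraries and 1 to 249 when 1 library was left out. For Sting1−/− against WT they numbered 49 in DESeq2, 2 with 2 genotypes, 1 without the Y-linked libraries and 0 to 22 when 1 library was left out. For Mcl1Δhep Sting1−/− against Mcl1Δhep they numbered 671 in DESeq2, 1 with the Y-linked covariate and 0 to 3108. For the averaged effect they numbered 1521 with the small RNA covariate, 363 without the Y-linked libraries and 1711 to 4267, and for the interaction 172 in DESeq2 and 0 to 1574.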
